A study of Mus musculus with 2 samples.

Results

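A set of 1626 peaks of the ELAVL2 pulldown lay more than 50 kb from the gene start or end that the authors' deposited gene table measured them to. They were chosen by position alone: autosomal peaks for which every row of that table placed the peak upstream or downstream of the gene, and for which the smallest listed distance was above 50000 bp. They make up 5.74% of the 28332 peaks called, and 6.12% of the 26573 autosomal peaks that the table pairs with a gene. The other autosomal peaks, 4816 outside genes at most 50 kb away and 20131 in genes, are used here only for comparison.

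The study used RNA immunoprecipitation followed by sequencing (RIP-seq) in ovaries of newborn (P0) mice; the labels give no strain or genotype. The antibody group is 1 sample, made from a pool of 100 ovaries with an antibody against ELAVL2. The other group is 1 sample of input RNA, kept from the same kind of lysate before the pulldown (5% of it) and with no antibody listed. No pulldown with a control antibody and no ovary lacking ELAVL2 is among the samples, whole ovary RNA mixes germ cells with somatic cells, and with 1 sample a side no difference given here has a replicate check. The tissue label can be read from the peaks only in part: of 5 germ cell markers, Dazl held 12 peaks, Ddx4 held 1 and Sohlh1, Nobox and Figla held 0, and of 5 markers of ovarian somatic cells (Foxl2, Wt1, Nr5a1, Kitl and Amhr2) 0 held a peak. A gene without an enriched peak can still be expressed.

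ELAVL2 belongs to the ELAV-like, or Hu, family of RNA-binding proteins, which hold U-rich and AU-rich stretches of RNA, mostly in the 3′ untranslated regions of mRNAs, and are known for effects on mRNA stability and translation. In the newborn ovary, germ cells are being enclosed one by one in primordial follicles. RNA that maps far from a listed gene can belong to a transcript that runs past its annotated 3′ end, to a long non-coding RNA (lncRNA) or pseudogene that the annotation did not hold, or to a repeated element. A nuclear or partly processed transcript can lie there as well.

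Each peak comes with a pileup, the number of RIP fragments that overlap its summit, and a fold enrichment over the local input. From these the input level was recovered as (pileup + 1) / fold − 1. It is in tags on the scale of the RIP library, so 1 input tag at the summit is worth 0.708, and the lowest possible level, the genome-wide background that the peak caller uses where the input is empty or nearly so, is 0.369. Only 1 tag per position and strand was kept by the caller, which left 13787676 of 172711531 RIP tags and 19479946 of 210270620 input tags, so a pileup counts distinct fragment ends and not molecules. Shares and medians are given with exact 95% intervals, which cover counting error only. Peaks of 1 transcript are not independent, so these intervals are too narrow for a statement about transcripts.

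The peaks' own bases are not shown, since no genome of the files' build (mm10) was used here. What can be shown is where members come closest to an annotated transcription start. Of the 1514 members on the chromosomes with promoter windows, 0 overlapped a RefSeq promoter window (250 bases before to 50 after a start, GRCm38.p6), against 102 of all 25711 autosomal peaks on those chromosomes. The selection largely fixes this 0, since a member within 50 kb of a start in the authors' table cannot occur. Only RefSeq starts that the table lacks or places elsewhere could lie near a member. In 4 places a member lay within 300 bp of such a window, all at lncRNA genes. The windows of 2 of them are printed, from 5′ to 3′ on the strand of the gene, to show the closest approach of a member on the upstream side (Gm30397, which also belongs to a large cluster of members) and on the downstream side (Gm2560). Capitals mark the 50 bases from the annotated start onwards.
Gm30397: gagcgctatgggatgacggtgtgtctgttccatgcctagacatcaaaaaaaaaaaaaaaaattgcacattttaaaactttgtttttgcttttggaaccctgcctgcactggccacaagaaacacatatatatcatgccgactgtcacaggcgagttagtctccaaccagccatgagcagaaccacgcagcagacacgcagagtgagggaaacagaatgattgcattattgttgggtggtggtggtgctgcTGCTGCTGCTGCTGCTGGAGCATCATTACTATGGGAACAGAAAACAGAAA
Gm2560: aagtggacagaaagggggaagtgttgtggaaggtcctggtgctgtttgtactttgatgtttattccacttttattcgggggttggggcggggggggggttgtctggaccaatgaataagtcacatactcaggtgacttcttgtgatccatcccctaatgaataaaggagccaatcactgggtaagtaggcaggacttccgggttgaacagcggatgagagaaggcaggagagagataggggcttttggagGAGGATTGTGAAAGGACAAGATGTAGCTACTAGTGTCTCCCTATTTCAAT
The Gm30397 window is chr8:44766190-44766489 on the minus strand, and the nearer edge of its member, chr8:44766518-44766586, lay 279 bp upstream of the start. That member had a RIP pileup of 11, an input level of 0.708 and a 7.03-fold enrichment. The Gm2560 window is chr4:14291260-14291559 on the minus strand, and its member, chr4:14291092-14291174, lay 135 bp downstream of the start, inside the gene, with a pileup of 8, an input level of 0.708 and a 5.27-fold enrichment. The GC contents of these windows were 45.7% and 48.3%, below the median of 52.7% over all 32851 windows. At Gm34032 a member with a pileup of 22 against 3.26 (5.40-fold) lay 312 bp upstream of the start, and at Gm47754 one with a pileup of 8 at the background input level (6.58-fold) lay 511 bp upstream. Of these 4 members, 3 had pileups of 8 to 11 and no more than 1 input tag. The Gm34032 member was above the upper quartile of pileup over all members, 19.

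The label of these peaks as intergenic did not hold for all of them. Over the whole peak list, most of which lies in genes, the listed nearest gene had the nearest start in 28166 of 28188 pairs (99.92%). It had the nearest body in 48.77% of these pairs. The share with the nearest body among the distant peaks alone was not counted. By the rule of the nearest start, a peak beyond the 3′ end of a long gene can be paired with some other gene. Measured to the body of any gene in the same table, 167 members (10.3%, interval 8.84% to 11.8%) were at most 50 kb away, beside 68 different genes, and 84 were within 5 kb. All 167 lay past that gene's 3′ end, which the selection fixes, since a member within 50 kb of a gene's start could not have been listed so far away. Their median gap was 4850 bp.

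A larger set of genes shortened the distances further. Against the 49997 genes of NCBI RefSeq for GRCm38.p6, 317 members (19.5%, interval 17.6% to 21.5%) overlapped a gene: 95 a protein-coding gene, 172 an lncRNA gene, 48 a pseudogene and 2 another kind. Counting those within 50 kb too, 948 members (58.3%) had a RefSeq gene nearby. The other 678 (41.7%, interval 39.3% to 44.1%) were above 50 kb from every gene of RefSeq and of the authors' table. That table holds only the 11969 genes paired with a peak, so distances to other genes of the authors' annotation were not measured. The median distance was 103641 bp to the listed gene, 92790 bp to any gene body of the authors' table and 34843 bp to a RefSeq gene. The members are therefore called distant peaks here for their listed distance, and not intergenic. The listed gene had a provisional Gm symbol for 1005 of them (61.8%), against 42.7% of the nearer peaks outside genes.

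Just inside the threshold, at 50047 bp, was chr11:45346438-45346696 with a pileup of 14 and an 8.78-fold enrichment, followed by a peak at 50079 bp with a pileup of 7. Just outside it, at 49987 bp, was chr9:81253579-81253637 with a pileup of 25 and a 4.96-fold enrichment, followed by a peak at 49984 bp with a pileup of 24.

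Elavl2 itself was among the genes whose downstream stretch held distant peaks. Genes beside or around members are named from here on after their values were seen. In the authors' table the Elavl2 body ended at chr4:91250763 on the minus strand, while the RefSeq gene runs on to 91211533. Peak chr4:91211729-91211827 had a RIP pileup of 28 against an input level of 5.66, a 4.35-fold enrichment with a −log10 q of 7.37. Its neighbour chr4:91211880-91211987 had a pileup of 23 against 2.83, a 6.26-fold enrichment with a −log10 q of 9.58. Both lie 196 to 347 bp from the RefSeq 3′ end of the gene and 38776 to 38936 bp beyond the table's, so by RefSeq they fall in the last stretch of the gene for the protein that was pulled down.

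Several other long genes had runs of distant peaks within the first few kilobases past the table's body. Lingo2, which encodes a leucine-rich repeat membrane protein, had 7, from 47 to 2779 bp past the table's end, with pileups of 7 to 12 and folds from 2.86 to 7.88. L3mbtl4, a chromatin reader with MBT repeats, had 6, from 205 to 2522 bp past the end, with pileups of 8 to 23. Mdga2, a cell adhesion protein of synapses, had 4, from 2295 to 3179 bp past the end, and its peak chr12:66466256-66466389 reached a 10.2-fold enrichment from a pileup of 13 at the background input level. RefSeq extends each of these genes over the peaks: all 7, 6 and 4 lie inside its gene.

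Musk, the receptor kinase that organises the neuromuscular junction, had 6 distant peaks from 459 to 2887 bp past the table's end. The pileups were 14, 13, 30, 25, 40 and 38 in that order, against input levels of 1.80, 2.19, 11.3, 7.79, 7.08 and 9.20. The input was thus higher, as was the RIP signal, in the 4 peaks nearest the RefSeq 3′ end, and the highest of them, chr4:58376897-58377089, had a 5.08-fold enrichment with a −log10 q of 12.6. Pcgf5, a Polycomb RING finger protein, had 6 with pileups of 24 to 39 and folds of 1.94 to 3.84 over input levels of 6.37 to 19.1, and the last came within 21 bp of the RefSeq 3′ end. The 6 Pcgf5 peaks and the last 4 of Musk had input levels above 6, while the first 2 of Musk rest on few input tags.

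Lnp, called Lnpk in RefSeq and encoding the endoplasmic reticulum protein lunapark, had 5 distant peaks from 1056 to 5080 bp past its end, with pileups of 14 to 21 and folds to 7.04. Ppp1r12a, the targeting subunit of myosin phosphatase, had 3 with pileups of 36 to 50 but folds of only 1.78 to 2.23. Samd12 had 6 at 1789 to 7437 bp, of which chr15:53454276-53454529 had a pileup of 28, an input level of 1.98 and a 9.73-fold enrichment. The Samd12 peaks are inside the RefSeq gene but 54856 to 60656 bp short of its 3′ end, so closeness to the table's end and closeness to the RefSeq end are different things there.

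Not every run is covered by RefSeq. Agmo, which cleaves ether lipids, had 10 distant peaks from 13665 to 20007 bp past its end (pileups of 5 to 15), Pdzrn4 had 9 from 32061 to 38851 bp past it (pileups of 5 to 16), and Adgrg6, an adhesion G protein-coupled receptor, had 7 from 256 to 15445 bp past it (pileups of 6 to 11). Ctnna3, the α-T-catenin gene, had 6, of which chr10:65011999-65012420 had a pileup of 28 against 1.42, a 12.0-fold enrichment, 8332 bp past the end. None of these 32 peaks overlapped a RefSeq gene. Whether they belong to longer forms of those mRNAs or to separate transcripts was not tested, and the peak list carries no strand.

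**Figure D1:**
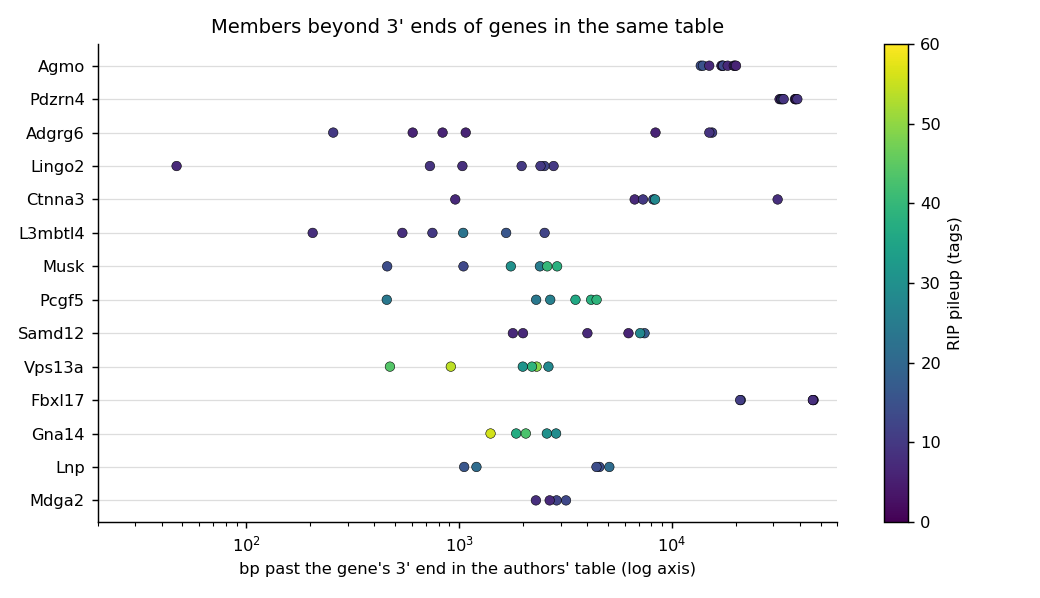
Distance of distant peaks past the 3′ end of a gene in the authors' table (log axis, bp), for the 14 genes with most such peaks; each point is 1 peak and its colour is the RIP pileup in tags. Adgrg6, Lingo2, L3mbtl4, Musk, Pcgf5 and Vps13a begin within 500 bp of the end, while Agmo, Pdzrn4 and Fbxl17 begin above 10 kb. Vps13a and Gna14 hold the brightest points.

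Over all protein-coding RefSeq hosts with a known strand, 43 of 86 members (50%, interval 39% to 61%) were within 5 kb of the RefSeq 3′ end and 60 (69.8%, interval 58.9% to 79.2%) lay in the last 10% of the gene. Over all 19389 autosomal peaks in such genes the shares were 54.8% and 50.5%, and the selection by the nearest start favours 3′ positions among the members. Of the 67 pairs of a member and a coding host whose body is also in the authors' table, 59 lay past the table's 3′ end (49 of them within 5 kb) and 8 past its 5′ end. The selection bears on this split, since a member within 50 kb of a start in the table cannot occur. Dlg2, a scaffold protein of synapses, had both kinds: pileups of 22 and 28 at 1223 and 1867 bp past the 3′ end, and 46 to 56 at 278590 to 279383 bp before the 5′ end, all at folds of 2.61 or less. Of the 167 peaks near a table gene 48 (28.7%) reached a pileup of 20, close to the 24.5% of all distant peaks.

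Of the 110 lncRNA hosts 1 was found in the authors' table under the same symbol. A host listed there under another symbol would be missed by this match. The selection largely fixes this low count, since a gene of the table lying over a peak would have kept that peak out of the members. The 1 match, Gm13794, had a table body that ended 115688 bp before its member. Gm33906 held 8 distant peaks within chr14:123178977-123180848, with pileups of 5 to 21 and a largest fold of 8.69. Gm36480 held 4 with pileups of 20 to 37, from 273 to 1950 bp before its 3′ end, and 6720468P15Rik held 5 with pileups of 37 to 48 and folds of 2.07 to 2.84, from 25 to 831 bp before its 3′ end. Gm34032 and Gm46560 overlap on opposite strands and share 4 peaks, which cannot be assigned to either. Against these, D130079A08Rik held the member with the highest fold of those with a pileup of at least 20: chr14:104336998-104337068 had 21 RIP tags against 0.708, a 12.9-fold enrichment, and was listed 124608 bp downstream of Pou4f1, a POU transcription factor.

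The RefSeq place of a member went with its signal. Members in coding genes had a median pileup of 13 (interval 10 to 20) and a median input level of 2.12 (0.708 to 2.83), and 14.7% of the 95 were at the background input level. Members in lncRNA genes had medians of 11 and 0.796, with 20.9% of the 172 at background. The 50 in pseudogenes or other genes stood apart, with a median pileup of 29.5 (19 to 38), a median input level of 8.85 (2.83 to 12.7) and only 4.00% at background. Members outside every RefSeq gene had a median pileup of 10 whether they were within 50 kb of one (631) or above (678), with median input levels of 0.725 and 0.708 and 24.7% and 26.3% at background.

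As a class, the distant peaks had the lowest RIP signal and the lowest input. Their median pileup was 10 (interval 10 to 11), against 15 (14 to 15) for nearer peaks outside genes and 28 (27 to 28) for peaks in genes. Their median input level was 0.743 (0.708 to 0.956), against 2.12 and 7.79. A pileup of at least 20 was reached by 398 members (24.5%, interval 22.4% to 26.6%), against 58.3% of all autosomal peaks with a gene in the table. The members ranged from 4 to 78 in pileup, from 0.369 to 36.1 in input level and from 50 to 948 bp in length.

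Low input was the larger difference, so the fold enrichment ran the other way. The median fold was 5.11 (interval 5.11 to 5.25) for distant peaks, 4.55 (4.50 to 4.65) for nearer ones and 3.26 (3.22 to 3.29) in genes, and 880 members (54.1%, interval 51.7% to 56.6%) reached 5, against 26.1% of all autosomal peaks in the table. Keeping 1 tag per position and strand caps the pileup, which reached 97 in genes, and so caps the fold where input is high. Input was above 10 tags for 51.5% of peaks in genes and 12.5% of distant peaks. The share of the contrast in fold that this cap makes was not tested. The input level was at the background for 386 members (23.7%, interval 21.7% to 25.9%), against 7.47% of all those peaks, 12.5% of the nearer ones and 4.95% of those in genes. For 807 members (49.6%) it was no more than 1 input tag. For those members the level was set by at most 1 tag at the summit, by the tags of the wider local windows or by the background, and RNA that is scarce in the ovary cannot be told apart from RNA that the input missed.

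**Figure D2:**
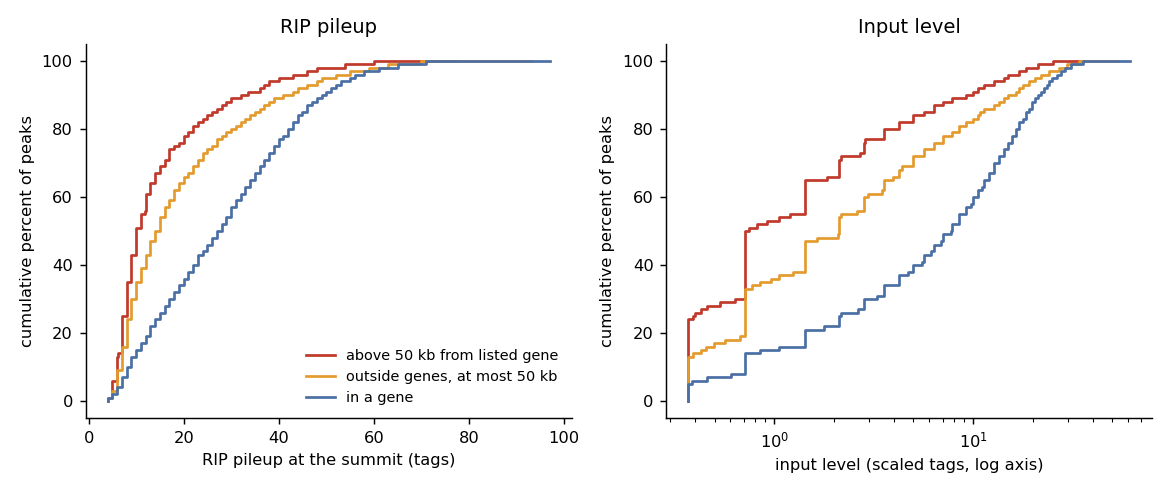
Cumulative percent of autosomal peaks by RIP pileup in tags (left) and by input level in scaled tags on a log axis (right), for distant peaks, nearer peaks outside genes and peaks in genes. The curve of distant peaks lies to the left in both panels, and its first step on the right is the 23.7% at the background of 0.369.

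Within a given range of input the classes had similar folds. At the background level the fold depends on the pileup alone, so the median pileup of 7 in all 3 classes and the median fold of 5.85 are the same result. From above the background to 1 tag the median folds were 5.86, 5.67 and 5.62 for distant, nearer and genic peaks, and the 3 intervals overlapped. Above 1 to 3 tags the order turned, with 5.12, 5.23 and 5.38. Above 3 to 10 tags the medians were 4.36 (interval 4.11 to 4.48) for distant, 4.18 (4.05 to 4.19) for nearer and 3.90 (3.86 to 3.92) for genic peaks. Above 10 tags they were 2.71 (2.58 to 2.78), 2.54 (2.50 to 2.59) and 2.47 (2.46 to 2.48). The folds of the classes were thus close to each other at low input. Above 3 tags they were somewhat higher for distant peaks than in genes, while the intervals of distant and nearer peaks overlapped. A threshold on q also sets a least fold at each input level in every class.

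By −log10 q the first was chr10:119016886-119017037, with 35 RIP tags against 2.16, an 11.4-fold enrichment and a −log10 q of 23.4, 9667 bp from the lncRNA gene Gm33624. Equal second were the Ctnna3 peak given above and chr5:79062998-79063330, with the same pileup of 28 and input level of 1.42. The chromosome 5 peak lay 283004 bp from the nearest gene of the table or RefSeq, a snoRNA model. A pair on chromosome 8, at 113260182 and 113261124, had pileups of 29 and 20 with folds of 11.3 and 9.69, 110798 bp or more from any RefSeq gene. None of these 5 peaks overlapped a gene of the table or RefSeq. Some others high in the rankings by fold and −log10 q had a host, as the D130079A08Rik and Samd12 peaks given above, or more input. Among the latter were chr15:42030628-42030716, with a pileup of 48 against 6.37 and a −log10 q of 19.6, and chr13:118935808-118935887, with 59 against 10.6 and 18.6. Further peaks ranked by fold had neither: chr13:106267127-106267572, chr12:67675583-67675913 and chr17:92714350-92714407. Their pileups were 25, 22 and 21 against 1.42 each, with folds of 10.8, 9.52 and 9.11.

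The largest folds of all, 13.2, were reached by 2 peaks at the background input level with a pileup of 17, chr13:5509162-5509251 and chr7:13908038-13908363. The second of them lay 1314 bp past the 3′ end of Sult2a4, a sulfotransferase, although its listed gene was a pseudogene 54609 bp away. Their folds divide by a modelled background and not by tags seen in the input, so they have a wide error that the list does not give.

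The highest pileups came with much input. On chromosome 4 a pair at 92282939 and 92280752 had pileups of 78 and 77 against an input level of 21.9 each, 3.44-fold and 3.40-fold. Peak chr1:114451191-114451394 had a pileup of 73 against 29.7, a 2.41-fold enrichment, and was 408794 bp from the nearest RefSeq gene. Peak chr14:15949273-15949568 had 72 against 36.1, 1.97-fold. The input held many tags at these places, in the case of the chromosome 1 peak far from any gene of the table or RefSeq.

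Beyond 50 kb the signal varied little with distance. Members 50 to 100 kb from the listed gene (799), 100 to 200 kb (455) and above 200 kb (372) had median pileups of 10, 10 and 11, a median fold of 5.11 each and 21.7%, 25.3% and 26.3% at the background input level, with overlapping intervals. The share inside a RefSeq gene fell from 24.5% to 17.4% and 11.3%. The 5 members farthest from a listed gene, at 667912 to 774476 bp, had pileups of only 6 to 10.

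The members were spread unevenly over the chromosomes, from 2.56% of the peaks of chromosome 11 (interval 1.79% to 3.54%) to 13.0% of those of chromosome 18 (10.8% to 15.4%). Chromosomes 1, 3, 5 and 6 differed from the rest in the authors' table: 29.2% to 32.3% of their genes there had Ensembl numbers of 100000 or above, against 0.915% to 12.6% elsewhere. This split was made after these values were seen. On those 4 chromosomes 226 of 7158 peaks (3.16%, interval 2.76% to 3.59%) were members, against 1400 of 19415 (7.21%, interval 6.85% to 7.58%) on the other 15. When distance was measured to RefSeq instead, the shares of peaks outside listed genes and above 50 kb from a gene were 2.93% (2.56% to 3.35%) and 3.08% (2.84% to 3.33%).

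Measured to RefSeq the shares still differed between single chromosomes, from 0.917% on chromosome 7 and 1.23% on chromosome 9 to 4.98% on chromosome 8. Of the members on chromosomes 1, 3, 5 and 6, 8.41% were inside a RefSeq gene, against 21.3% (interval 19.2% to 23.5%) on the rest. The split does not describe every chromosome: chromosomes 2, 7, 9 and 11 also had few members (2.72%, 3.90%, 3.04% and 2.56%) with 3.8%, 12.6%, 9.79% and 1.95% of high-numbered genes. On chromosome 15 the share fell from 12.1% by the listed gene to 3.12% by RefSeq, and on chromosome 8 from 10.5% to 4.98%.

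**Figure D3:**
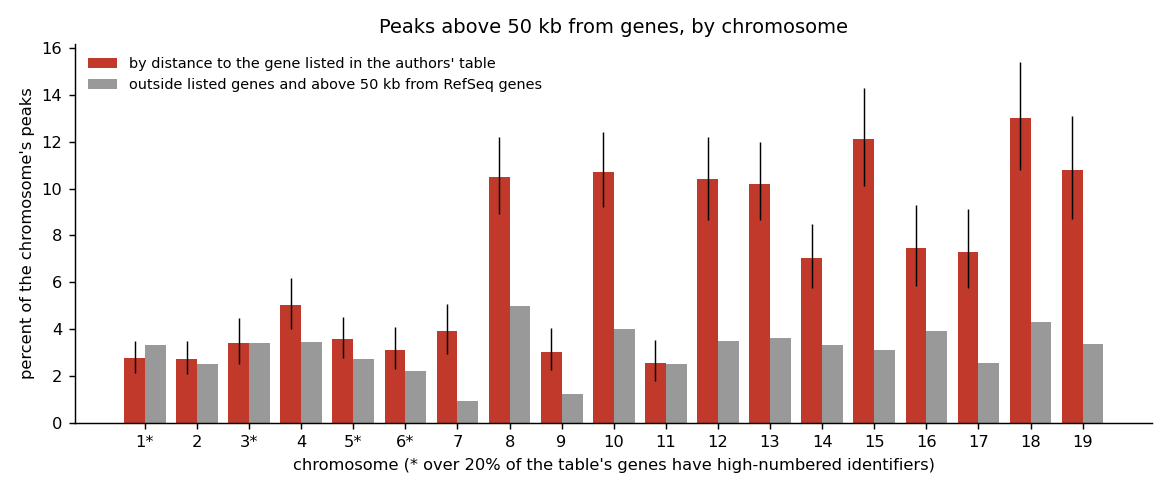
Percent of each autosome's peaks that are distant by the gene listed in the authors' table (red, with exact 95% intervals) or lie outside listed genes and above 50 kb from RefSeq genes (grey, without intervals). Stars mark chromosomes 1, 3, 5 and 6; chromosomes such as 10, 12, 13, 15 and 18 exceed 10% in red and stay below 5% in grey.

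Distant peaks came in runs. Another member lay within 10 kb of 962 of them (59.2%, interval 56.7% to 61.6%) and within 1 kb of 814 (50.1%), so most neighbours were close. The same share within 10 kb, counted within each class, was 64.8% for nearer peaks outside genes and 83.7% for peaks in genes, which are also more numerous. Joined by gaps of up to 10 kb, the members formed 283 clusters of at least 2, of which 58 had 5 or more and held 391 members, and 664 members stood alone. The clusters were short, with a median span of 1037 bp and a longest of 22255 bp, and 17 of the 58 touched a RefSeq gene.

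Members in clusters were longer and better covered than those alone. Their median length was 85 bp (interval 81 to 89) against 55.5 bp (54 to 58), and their median pileup 12 (11 to 13) against 9 (9 to 9). The input level was at the background for 18.1% (15.7% to 20.7%) of them against 31.9% (28.4% to 35.6%). The share inside a RefSeq gene was 21.4% against 16.7%.

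The largest cluster, chr12:67670196-67692450, held 15 peaks with pileups from 7 to 30 and input levels from 0.369 to 4.25. The 7 peaks of its first part, up to 67672796, included the strongest one, chr12:67672424-67672796, with a pileup of 30 and an 8.09-fold enrichment. At its far end chr12:67692031-67692194 had a pileup of 15 at the background input level, 11.7-fold. The nearest RefSeq gene, a pseudogene named Gm17821, was 1199 bp away and none of the 15 overlapped it.

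The second, chr10:97104588-97118222, held 14 peaks with pileups from 9 to 45 and a median input level of 4.69, at least 43529 bp from a RefSeq gene. It contained the longest member, chr10:97111939-97112886, which had a pileup of 40 over an input level of 14.9. The third, chr10:54772180-54776958, held 12 with pileups of 11 to 25 over a median input level of 1.42, and its last peak, chr10:54776802-54776958, reached 18 against 0.708, 11.1-fold. In both, RIP and input tags recurred along several kilobases, and no gene of the table or RefSeq overlapped these peaks.

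The fourth, chr19:16612223-16616290, held 11 with pileups of 28 to 56 over input levels of 7.64 to 21.9. It fills the gap between the 3′ ends of 2 genes that face each other in the table, Gna14, a G protein α subunit, and Vps13a, a lipid transfer protein: 5 of the peaks were nearer to Gna14, 1405 to 2855 bp past its end, and 6 to Vps13a, 473 to 2628 bp past its end. RefSeq extends Vps13a over 2 of them. Their folds, 2.39 to 3.44, overlap the lower folds of the other large clusters, and the cluster's median pileup of 39 and median input level of 12.0 were the highest of the 5. The fifth, chr8:44761813-44777361, held 11 with pileups of 5 to 17, of which 2 overlapped the lncRNA gene Gm30397 whose promoter window is printed above and others lay upstream of its start.

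**Figure D4:**
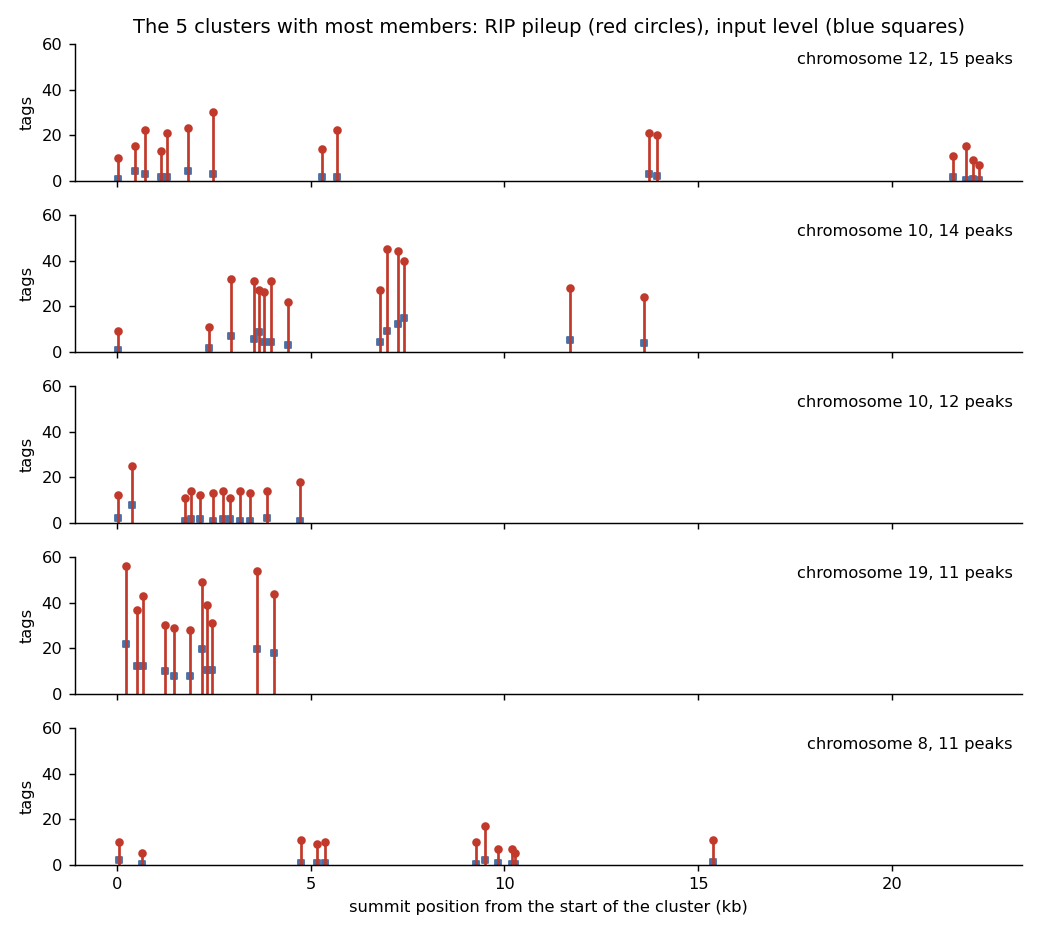
RIP pileup (red circles) and input level (blue squares), in tags, of each peak in the 5 clusters with most members, against its summit's distance from the cluster's start in kb. Pileup exceeds input at every peak, which the peak calling requires. The chromosome 19 cluster reaches the highest pileup, 56, and the highest input level, 21.9.

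Among listed genes, those with most members were provisional models: Gm25766 with 18, Gm26256 with 17, Gm24587 with 14 and Gm11920 with 13. Among genes with other symbols the first were Dgkb, a diacylglycerol kinase, with 10, Qk, an RNA-binding protein of the STAR family, with 9, and Tmtc4, an O-mannosyltransferase, with 8. These counts say where the nearest start lies and little more: the 10 peaks listed with Dgkb were the 10 past the 3′ end of Agmo, at 278440 bp or more from Dgkb, and the 8 listed with Tmtc4 were those inside the lncRNA gene Gm33906.

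Some distant peaks had an identical twin, a peak elsewhere in the list with the same length, summit offset, pileup and fold enrichment. Reads that fit several places of a duplicated sequence can give such twins, and so can the small number of values that a low peak can take. Twins were found for 295 members (18.1%, interval 16.3% to 20.1%), against 7.52% of all autosomal peaks in the table, 12.9% of nearer peaks outside genes and 5.37% of peaks in genes. Of the 295, 256 (86.8%) had a pileup of 9 or less and 75.3% were 50 bp long, the shortest length called, against 7.21% of members without a twin.

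Within a range of pileup the classes differed less. At a pileup of 4 to 9, 36.7% of distant peaks (interval 33.1% to 40.4%) had a twin, against 32.1% (29.7% to 34.6%) of nearer peaks and 26.5% (24.7% to 28.3%) of those in genes. At 10 to 19 the shares were 6.40%, 7.35% and 4.72%, and at 20 or more 1.26% (5 of 398), 2.59% and 1.74%. Equal pileup and fold alone were common: 1626 members took only 542 different pairs of these values.

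**Figure D5:**
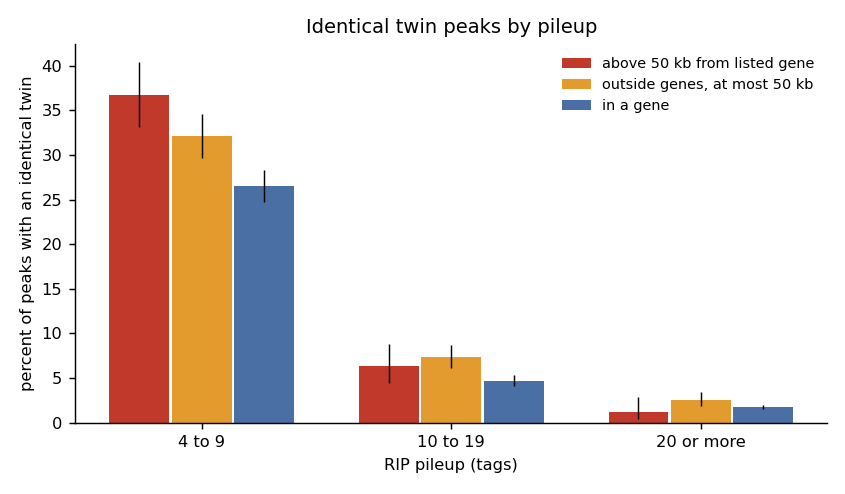
Percent of peaks with an identical twin, by RIP pileup in tags and by class, with exact 95% intervals. Bars fall from 36.7%, 32.1% and 26.5% at pileups of 4 to 9 to 1.26%, 2.59% and 1.74% at 20 or more.

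The 5 members with a twin at a pileup of at least 20 were few enough to name. At chr13:66741966-66742017 and chr13:66742058-66742110 the pileups were 32 and 22, and their twins at 65481929 and 65482021 were each exactly 1260037 bp away. Another peak of the same run, chr13:66742886-66742942 with a pileup of 15, had its twin 762166 bp away at 65980720. These members lie in the lncRNA gene Gm40989 and are listed with Zfp640, a zinc finger gene. Whether the paired places share their sequence was not tested. Of the other 3, the one at chr16:5642711-5642773, pileup 45, matched a peak inside genes on chromosome 7 at 132982428, the one at chr14:97666044-97666094, pileup 42, matched a peak in Nhp2l1 (a small nuclear ribonucleoprotein gene) on chromosome 15, and the one at chr19:49787988-49788040, pileup 23, matched a peak on chromosome 12.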

How the data were processed

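RNA from 1 ELAVL2 RIP sample and 1 input sample of newborn mouse ovary was compared through the authors' peak list and gene table. The submitters' processing notes name the build mm10 and, among other tools, the aligner TopHat2 (2.0.8b) and the peak caller MACS2 (2.1.0.20140616). Peaks were called by the authors, per the file headers, on 3 pooled RIP lanes against 3 pooled input lanes, with tags extended to 50 bp, a q cutoff of 0.05 and local windows of 1000 and 10000 bp. The signal (pileup), the fold enrichment over the local input, and the −log10 p-value and −log10 q-value are as deposited; recomputed Poisson −log10 p-values differed by at most 5.62e-05. The distance in bp is that of the authors' table, measured from a peak to its gene's nearer end.

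Exact repeats among the 85730 rows of the table were dropped (42176), which left 43554 rows, 11969 genes and 28179 peaks. Per the labels, libraries were stranded, but the peaks carry no strand. Members, lists and comparisons were chosen with earlier results of these data known. Distances to gene bodies used the table and RefSeq (GRCm38.p6, the assembly of mm10). Values were equal within a tolerance of 0.0005. The text names peaks from these sets: the first 10 by fold (pileup 20 or above), the first 10 by −log10 q, the first 5 by pileup, by distance and by cluster size, and the twin groups of highest pileup, with their genes; host genes and the genes past whose 3′ end peaks lay were added after their values were seen. With 1 sample a group no test over samples exists; no p-value was computed. Intervals are Clopper-Pearson for shares and order-statistic for medians. Cluster, twin and distance steps were tested on simulated data. Python 3.11.15, pandas 2.3.3, numpy 2.4.6 and scipy 1.17.1 were used. Alternatives varied the distance, q, pileup, gap and twin rules, and merged clusters or left out groups of peaks.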

Additional observations from a re-analysis of the deposited data

Results flagged for a closer look

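A further 153 peaks, on 15 unplaced sequences, have no row in the gene table and so could not be assigned a distance or compared. They are signal outside the comparisons above. Their median pileup was 14 and their median fold 4.55, and 34.0% (interval 26.5% to 42.1%) had an identical twin, against 18.1% of the distant peaks; 0 distant peaks had a twin among them.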

How the results depend on the processing

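Over 18 alternative settings, 38 of 62 values kept to the interval of the value reported, or to within 1.5 times of a count, and 24 moved. With a distance above 25 kb there were 2563 members, with a median input level of 1.06 and 20.7% at background; above 100 kb there were 827, and 55.4% had a neighbour. With a −log10 q of at least 3 the median pileup was 12 and 55.4% had a neighbour. With a pileup of at least 20 the median input level was 7.79, 0% were at background, 63.1% had a neighbour and 1.26% a twin. Without twins the median pileup was 12, the input level 1.42 and the share at background 16.6%. With clusters merged to 1 peak, 947 remained and 27.5% were at background. A level of at most 1 input tag, in place of the background, held for 49.6%; a gap of 50 kb gave 64% with a neighbour; equal pileup and fold alone gave 94.5% with a twin, and a summit offset from either end 22.1%. Added after seeing the data, a distance above 50 kb from every gene of the table and RefSeq left 678 members, with an input level of 0.708, 26.3% at background and 52.5% with a neighbour. The input limits the folds: at the background level they rest on no counted input tag at the summit. No paired analysis was possible because each group is 1 sample. Leaving out a replicate was not possible either.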

Other observations

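The X chromosome, which the autosomal rule leaves out, held 103 peaks that meet the same distance rule, 6.58% of its 1565 peaks. Their median pileup was 13 (interval 12 to 14), their median input level 1.42 (1.42 to 2.12) and their median fold 5.38. The input was at the background for 7.77% of them (interval 3.41% to 14.7%), against 23.7% of the autosomal distant peaks, and 18.4% had an identical twin. The Y chromosome held 2 such peaks.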
